A study of Mus musculus with 4 samples.

Results

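The 10 genes described here encode the enzymes and the transporter that make, take up and use creatine as a store of high-energy phosphate, together with the muscle enzymes that keep adenine nucleotides in balance. They were chosen by name, with earlier results of these data known. The entries were Ckm, Ckb, Ckmt1, Ckmt2, Gatm, Gamt, Slc6a8, Ampd1, Ampd3 and Ak1. They were found among the 24850 entries with a gene symbol in the total RNA-seq tables and the 24992 in the polyA RNA-seq tables. Each symbol matched 1 entry in each of the 4 libraries. The study used C2C12, a mouse myoblast line that fuses into contractile myotubes when serum is lowered in differentiation medium (DM). Proliferating myoblasts (MB, labelled DM -24 h) and myotubes (MT, DM 72 h) gave 1 library each of total RNA depleted of ribosomal RNA. The times are those of the sample labels, and a legend of the study gives a different time for MT in an RNA-seq comparison, so the time of the MT library is uncertain. Myotubes transfected with siRNA against hnRNPL, a nuclear RNA-binding protein (si-hnRNPL), or with control siRNA (si-NC) gave 1 library each of polyA RNA at DM 48 h. All 4 libraries therefore came from the same cell line. Since each condition had 1 library, the differences below could not be set against a spread between replicates, and p-values were not computed. The polyA and total RNA libraries differ in RNA selection, kit and time in DM, so no change was computed between them.

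Creatine kinases move phosphate between ATP and phosphocreatine, which buffers ATP where it is made and where it is spent. The cytosolic subunits are Ckm, the muscle form that dominates adult skeletal muscle, and Ckb, the brain form that immature muscle cells also express, while Ckmt1 and Ckmt2 encode the ubiquitous and the sarcomeric mitochondrial forms. Gatm and Gamt catalyse the successive steps of creatine synthesis and Slc6a8 imports creatine from outside the cell. Ak1 is the cytosolic adenylate kinase that turns a pair of ADP molecules into ATP and AMP, and the AMP deaminases Ampd1, the skeletal muscle form, and Ampd3 remove the AMP so formed. In the purine nucleotide cycle, adenylosuccinate synthase and adenylosuccinate lyase then return IMP to AMP.

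The bases directly upstream of the start sites of Ckm and Ckb are shown because these genes share the cytosolic creatine kinase reaction and followed different courses in the libraries, Ckm from near 0 and Ckb from an already high level. Both are RefSeq promoter sequences that match the mm9 genome at a single place, Ckm at chr7:19996193-19996442 on the plus strand and Ckb at chr12:112910550-112910799 on the minus strand, and each runs 5′ to 3′ toward the start site. Capitals mark an E-box (CANNTG, the core that myogenic bHLH factors bind) in Ckm and a match to the MEF2 consensus in Ckb.
Ckm: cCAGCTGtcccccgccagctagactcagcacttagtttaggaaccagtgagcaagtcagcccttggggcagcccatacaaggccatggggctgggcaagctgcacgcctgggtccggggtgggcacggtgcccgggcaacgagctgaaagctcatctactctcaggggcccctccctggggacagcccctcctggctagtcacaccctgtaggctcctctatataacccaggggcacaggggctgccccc
Ckb: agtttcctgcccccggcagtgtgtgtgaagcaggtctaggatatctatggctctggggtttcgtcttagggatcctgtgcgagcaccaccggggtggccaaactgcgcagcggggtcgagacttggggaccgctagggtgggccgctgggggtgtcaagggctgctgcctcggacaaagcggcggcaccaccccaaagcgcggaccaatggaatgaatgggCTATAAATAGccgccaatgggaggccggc

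In these 250 bases, Ckm held 1 E-box of the form CAGCTG, from 249 to 244 bases upstream of its start. Ckb held no E-box, and its MEF2 match lay from 29 to 20 bases upstream, across an AT-rich stretch near the start. Promoter sequences were given for 8 of the 10 genes, with 14 start sites in all. On either strand, CANNTG was found in 9 of the 14, where 66.2% of all 32851 promoters of that length held it. CAGCTG and CACCTG, which are forms of CANNTG, were each found in 4 of the 14, against 4271 and 5657 of all 32851 promoters. The MEF2 consensus matched in 1 of the 14 (2.92% of all promoters), and the CArG box of serum response factor in 1, at the third start site of Ampd3 (1.47%). These are matches of letters and not measured sites. Slc6a8 and Ampd1 are named only.

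Levels are given as FPKM, fragment numbers divided by transcript length and by library size, so that genes of different length can be compared within a library. Cufflinks attached a 95% interval to each value. It covers counting and assignment error within that library, and its width corresponds over all entries to 59960176 fragments in MB, 54442655 in MT, 14592485 in si-hnRNPL and 21341051 in si-NC. A change is the log2 of the ratio of FPKM + 1, in which the 1 damps the change of weakly expressed genes, and was called higher or lower at an absolute value of 0.58 or more. The interval after a change combines those of its pair of FPKM values. The labels were checked first. Hnrnpl, the target of the siRNA, was at 85.9 FPKM (83.1 to 88.7) in si-hnRNPL, or 90.4% of the 95.1 FPKM (92.7 to 97.5) in si-NC. The intervals were apart, but the log2 change of -0.14 (-0.20 to -0.09) did not reach the call threshold. Of named entries with a mean FPKM of at least 1, 23.4% had a lower change, so the knock-down was barely visible in these libraries. The 7 myotube markers were all higher in MT than in MB, with log2 changes from 5.19 to 7.52, and the 5 markers of cycling cells were all lower, from -3.21 to -1.93. The lineage markers Myod1 and Des were higher by 0.83 and 0.98. Markers of leukocytes, endothelium, epithelium, adipocytes, astrocytes, neurons and heart muscle summed to between 0.164 and 0.906 FPKM per library, with 1 to 3 of these 7 markers at 0 in each library and a highest value of 0.705 FPKM, for Myh6 in MT.

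The transition from MB to MT was compared in total RNA. Of the 10 genes, 4 were called higher in MT and 0 lower, with Ckm, Ckb, Gamt and Ampd3 above the threshold. Among all named entries, 7.81% were higher and 13.7% lower. Among named entries with a mean FPKM of at least 1, which include 7 of the 10 genes, 14.6% were higher and 28.9% lower. By the separate criterion that the intervals of the pair of libraries did not overlap, Ckm, Ckb, Ckmt2, Gamt, Ampd1, Ampd3 and Ak1 (7 genes) were higher and 0 were lower, where 20.1% of all named entries were higher and 27.7% lower (31.1% and 54.7% with a mean FPKM of at least 1). The median log2 change of the 10 genes was 0.33, beside -0.21 for the named entries with a mean FPKM of at least 1, which had an SD of 1.03. The RNA came from whole cultures, in which fewer cells of a type and less RNA per cell cannot be told apart.

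Ckm went from a level that rests on a single fragment to among the highest of the 10 genes. Its FPKM was 0.00961 (0 to 0.0288) in MB, the equivalent of 1 fragment, and 66.28 (64.7 to 67.8) in MT, from 7178 fragments. The log2 change was 6.06 (6.01 to 6.10). That interval holds for the added 1 only, and the change was 9.24 and 11.7 with 0.1 and 0.01 added instead. The ratio of the FPKM values was 6895, with a 95% counting interval from 1237 to 272380 that is wide because of the single fragment in MB. Ckb was at 20.1 FPKM (19.3 to 21.0) in MB and 66.27 (64.7 to 67.8) in MT, 3.30-fold higher, with a log2 change of 1.67 (1.60 to 1.74). Both libraries of Ckb lay far above 0 and their intervals were well apart. In MT the intervals of Ckm and Ckb almost coincided, so the FPKM of the muscle and the brain transcript could not be told apart. Ckm accounted for 0.0478% (0 to 0.150%) of their summed FPKM in MB and for 50.0% (48.8 to 51.2%) in MT. The sum grew from 20.1 to 132.6 FPKM. In implied fragments, Ckm made up 48.6% of Ckm and Ckb in MT.

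The mitochondrial creatine kinases were barely detected. Ckmt1 had 0.0253 FPKM (0 to 0.0589) in MB and was listed at 0 in MT. Ckmt2, the sarcomeric form, was listed at 0 in MB and had 0.139 FPKM (0.0694 to 0.208) in MT, from 16 fragments. No fold is given against a library listed at 0, and their changes on the log2 scale were -0.04 and 0.19. Both transcripts were far below the cytosolic forms in MT, and the value of Ckmt1 in MB rests on 2.27 implied fragments.

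The genes that supply creatine did not move as a group. Gatm, which makes guanidinoacetate, was at 43.5 FPKM (42.5 to 44.4) in MB and 41.8 (40.9 to 42.8) in MT. Slc6a8, the creatine importer, was at 22.0 (21.4 to 22.5) and 21.8 (21.3 to 22.3). For each of these genes the intervals of MB and MT overlapped, and the log2 changes were -0.05 (-0.10 to -0.01) and -0.01 (-0.06 to 0.04). Gamt, which methylates guanidinoacetate to creatine, was at 15.3 (14.3 to 16.2) in MB and 29.7 (28.4 to 31.1) in MT, 1.95-fold higher (log2 change 0.92, 0.81 to 1.02). Gamt was the single gene of the 3 with intervals apart.

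In FPKM without rescaling, AMP deaminase transcripts changed in their make-up more than in their sum. Ampd3 was at 6.27 FPKM (5.98 to 6.55) in MB and 13.1 (12.6 to 13.6) in MT, 2.09-fold higher (log2 change 0.96, 0.88 to 1.03). Ampd2, the form best known from liver and other non-muscle tissues and not among the 10 genes, was at 19.3 in MB and 9.15 in MT, 47.4% of the MB value. Ampd3 made up 24.5% (23.1 to 25.9%) of the summed FPKM of Ampd1 to Ampd3 in MB and 57.8% (55.7 to 60.0%) in MT, while the sum itself was 25.6 and 22.7. Ampd1, the skeletal muscle form, stayed low. It had 0.0166 FPKM (0 to 0.0357) in MB, from 3 fragments, and 0.401 (0.309 to 0.493) in MT, from 76. The ratio was 24.2, with a counting interval from 7.97 to 120, but the change on the log2(FPKM + 1) scale was 0.46 and was not called. Ampd1 contributed 1.77% of the AMP deaminase FPKM in MT.

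Ak1 had the highest level of the 10 genes in both MB and MT. It was at 71.8 FPKM (70.4 to 73.2) in MB and 80.5 (78.6 to 82.5) in MT, 1.12-fold higher, with intervals apart and a log2 change of 0.16 (0.12 to 0.21). Of the other adenylate kinases described here, Ak6, a nuclear form, was at 51.0 FPKM in MB and 19.2 in MT (log2 change -1.37), and Ak3 of the mitochondrial matrix at 37.5 and 35.8 (-0.07).

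**Figure D1:**
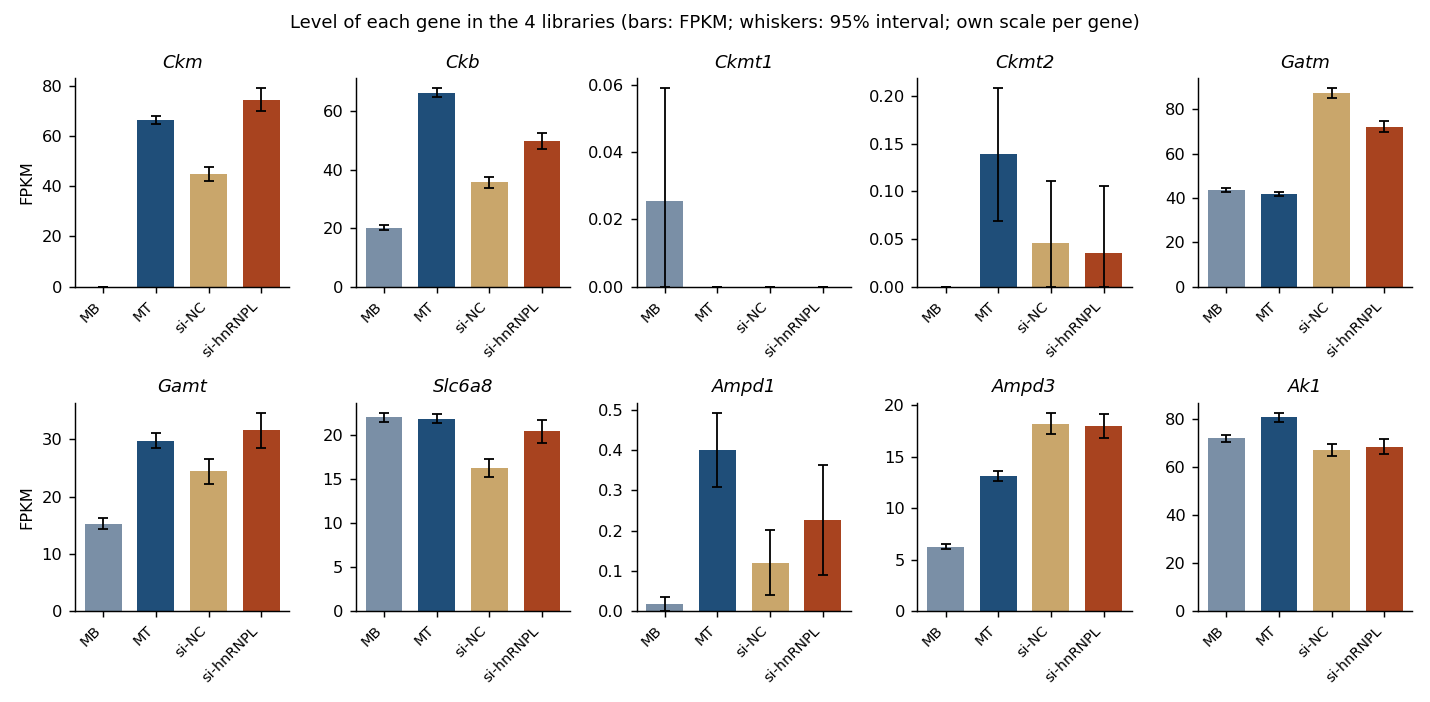
Level of each of the 10 genes in the 4 libraries, with FPKM on the vertical axis of each panel (own scale per gene), bars for the value of the single library and whiskers for its 95% interval. Ckm is near 0 in MB and at 66.28 FPKM in MT, Gatm and Slc6a8 have overlapping whiskers in MB and MT, and Ckmt1, Ckmt2 and Ampd1 stay below 0.5 FPKM in every library.

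The order of the 10 genes was read within each library. In MB it ran Ak1, Gatm, Slc6a8, Ckb, Gamt and Ampd3, each separated from its neighbour by non-overlapping intervals, followed by Ckmt1, Ampd1 and Ckm with intervals that overlapped and by Ckmt2 at 0. In MT the order was Ak1, Ckm and Ckb, Gatm, Gamt, Slc6a8, Ampd3, Ampd1 and Ckmt2, and Ckm with Ckb was the single pair of neighbours whose intervals overlapped. Ckmt1, at 0, came last. Summed over the 10 genes, FPKM was 178.9 in MB and 320.1 in MT, and Ckm and Ckb supplied most of the difference. Over all named entries, FPKM summed to 621542 in MB and 296284 in MT, so comparisons of sums between these libraries depend on the scaling.

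**Figure D2:**
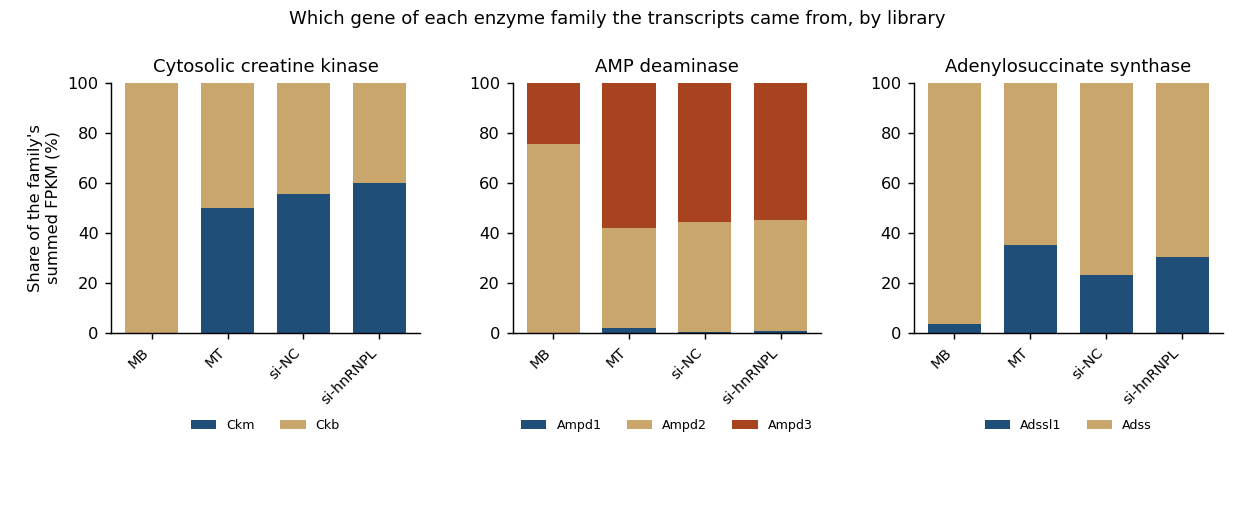
Make-up of the transcripts of 3 enzyme families in each library, as the percentage of the family's summed FPKM that each gene contributed (stacked bars, 1 library each). Ckm fills 0.0478% of the cytosolic creatine kinase bar in MB and 50.0% in MT, and the parts of Ampd3 and Adssl1 are also taller in MT than in MB.

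Among 34 other genes of adenine nucleotide handling, 3 were called higher and 20 lower in MT, with a median log2 change of -0.67. Over all named entries the shares were 7.81% higher and 13.7% lower, or 14.6% and 28.9% with a mean FPKM of at least 1, which 28 of the 34 genes had. After rescaling to the same sum over named entries, the list stood at 6 higher and 9 lower. Over all named entries the shares were then 21.2% and 6.37%, or 36% and 12.3% with a mean FPKM of at least 1. Adssl1, the muscle adenylosuccinate synthase of the purine nucleotide cycle, was at 2.80 FPKM in MB and 14.4 in MT (log2 change 2.02), while its paralog Adss was at 73.5 and 26.5 (-1.44). The share of Adssl1 in their summed FPKM was 3.66% in MB and 35.2% in MT. Prkag3, a regulatory subunit of AMP-activated protein kinase (AMPK) found mainly in glycolytic muscle, was at 0.313 and 9.72 FPKM (log2 change 3.03). It made up 0.436% of the summed FPKM of Prkag1 to Prkag3 in MB and 17.9% in MT. Prkaa2, the catalytic subunit that prevails in muscle tissue, was at 0.564 and 1.38 (0.61). The other catalytic subunit, Prkaa1, was at a higher level in both libraries, with 36.2 FPKM in MB and 33.8 in MT.

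The lower genes covered most roles in the list. Among the adenylate kinases, 2 of 6 in the list were lower (Ak4 and Ak6, with log2 changes of -0.71 and -1.37), and 3 of the 4 genes of the purine nucleotide cycle were (Ampd2, Adss and Adsl, the last at -0.94). Of the 7 enzymes of AMP and nucleosides, 5 were lower: adenosine kinase Adk (-0.97), adenosine deaminase Ada (10.2 to 1.96 FPKM, -1.92), the salvage enzymes Hprt (-1.01) and Aprt (-1.37), and purine nucleoside phosphorylase Pnp (-1.49). Of the 5 genes that exchange nucleotides across the mitochondrial membranes, 4 were lower, the ADP/ATP carriers Slc25a4 (317 to 192 FPKM, -0.72) and Slc25a5 (347 to 151 FPKM, -1.20) and the porins Vdac1 (-0.82) and Vdac3 (-0.64). Nucleoside diphosphate kinases were lower for 3 of 4 (Nme1 -1.69, Nme2 -0.89, Nme4 -0.99), and AMPK subunits for 3 of 7 (Prkab1 -0.59, Prkag1 -0.63, Prkag2 -0.93). The creatine exporter Slc16a12 was at 0 in MB and 0.0342 FPKM in MT.

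Scaling moved these counts. With that rescaling, the median of named entries with a mean FPKM of at least 1 turned from -0.21 to 0.32. The 10 genes stood at 6 higher and 0 lower, beside 21.2% and 6.37% of all named entries. Among named entries with a mean FPKM of at least 1, the rescaled shares were 36% higher and 12.3% lower. Ckm, Ckb, Gamt and Ampd3 then stayed above the threshold, with Ampd1 (1.21) and Ak1 (0.73) added, whereas Gatm and Slc6a8 took the opposite sign, at 0.51 and 0.55. The sum of the cycling cell markers was 480.9 FPKM in MB and 81.0 in MT, and that of the myotube markers 16.8 and 1925. Their part in the changes of the 10 genes and of the list was not tested.

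The si-hnRNPL and si-NC libraries were compared in polyA RNA from differentiating cells. With 1 library each, an effect of the siRNA cannot be told apart from a difference between cultures. Only Ckm passed the threshold, so that 1 gene was called higher in si-hnRNPL and 0 lower. Among all named entries 0.688% were higher and 0.416% lower, and among those with a mean FPKM of at least 1 the values were 1.36% and 0.863%. With intervals that did not overlap, 4 genes were higher (Ckm, Ckb, Gamt and Slc6a8) and 1 lower (Gatm). By that criterion 6.57% of all named entries were higher and 9.18% lower, or 14.2% and 19.6% with a mean FPKM of at least 1. The median log2 change of the 10 genes was 0.080, beside -0.010 for the named entries with a mean FPKM of at least 1, with an SD of 0.31.

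In si-NC, Ckm was at 44.97 FPKM (42.2 to 47.8), and in si-hnRNPL it was 1.65-fold higher at 74.33 (69.8 to 78.9), with a log2 change of 0.71 (0.59 to 0.84). Ckb was at 35.7 (33.9 to 37.5) and 49.8 (47.1 to 52.4), a log2 change of 0.47 (0.36 to 0.57). For each subunit the value in si-hnRNPL lay above the upper end of the interval in si-NC. Their sum was 80.7 FPKM with the control siRNA and 124.1 in si-hnRNPL. Ckm made up 55.7% (52.9 to 58.5%) of the sum in the control and 59.9% (57.1 to 62.6%) in si-hnRNPL, and these intervals overlapped. In implied fragments the share of Ckm was 39.8% and 43.4%, below that of Ckb. In the polyA libraries implied fragments are not read counts, and the cause of this difference was not tested. For Ckmt2, si-NC gave 0.0457 FPKM (0 to 0.110) and si-hnRNPL 0.0352 (0 to 0.106), and Ckmt1 was listed at 0 in both.

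The genes of creatine supply went in different directions. Gatm had the highest level of the 10 genes in si-NC, at 87.2 FPKM (85.0 to 89.4), and was at 72.1 (69.7 to 74.5) in si-hnRNPL, a log2 change of -0.27 (-0.33 to -0.21). It was the single gene of the 10 with a lower value and intervals apart. Gamt was at 24.4 (22.2 to 26.6) and 31.6 (28.5 to 34.7), with a log2 change of 0.36 (0.18 to 0.54). Slc6a8 was at 16.2 (15.3 to 17.2) and 20.4 (19.1 to 21.7), with a log2 change of 0.31 (0.19 to 0.43).

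The adenylate enzymes differed less between these libraries. Ampd3 was at 18.2 FPKM (17.2 to 19.3) with si-NC and 18.0 (16.9 to 19.2) with si-hnRNPL, with a log2 change of -0.02 (-0.13 to 0.10). Ak1 was at 67.0 (64.4 to 69.6) and 68.4 (65.4 to 71.4), with a log2 change of 0.03 (-0.05 to 0.11). Ampd1 was at 0.120 (0.0402 to 0.201) and 0.227 (0.0902 to 0.364), and its intervals overlapped. The share of Ampd3 among AMP deaminases (55.7% and 54.8%) had overlapping intervals as well.

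In si-NC the levels ran in the order Gatm, Ak1, Ckm, Ckb, Gamt, Ampd3, Slc6a8, Ampd1, Ckmt2 and Ckmt1, and the neighbours with overlapping intervals were Ampd3 with Slc6a8, Ampd1 with Ckmt2, and Ckmt2 with Ckmt1. In si-hnRNPL Ckm came first, but its interval overlapped that of Gatm, and the interval of Gatm overlapped that of Ak1, so these 3 genes could not be ranked. Ckb and Gamt followed with intervals apart, then Slc6a8 and Ampd3 with intervals that overlapped. Summed over the 10 genes, FPKM was 293.9 with si-NC and 334.8 with si-hnRNPL.

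**Figure D3:**
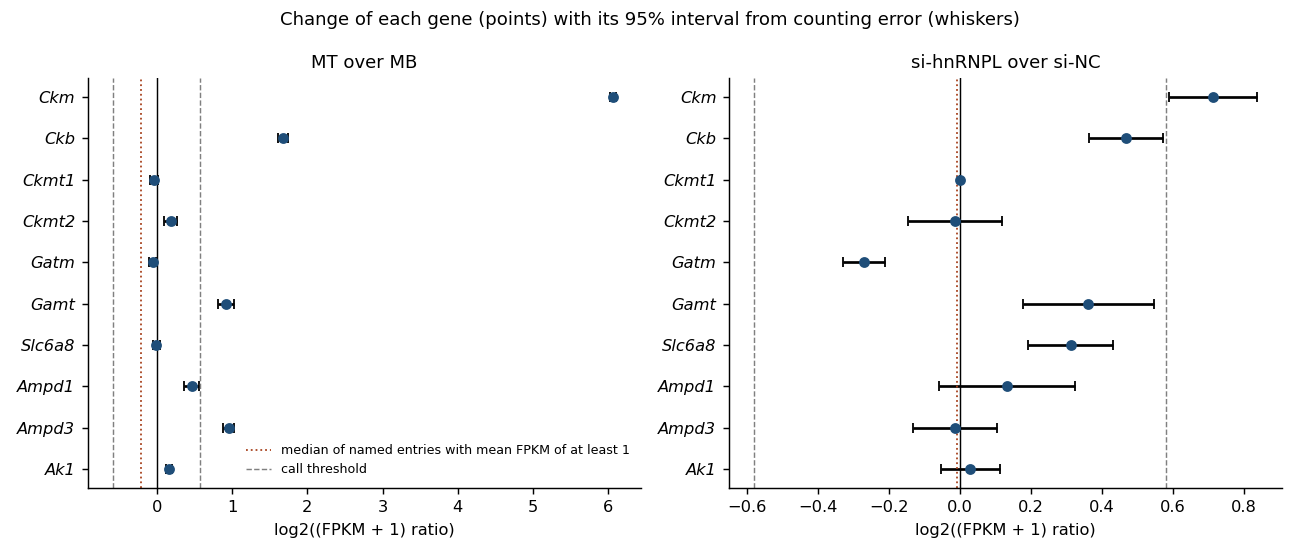
Change of each of the 10 genes as log2 of the FPKM + 1 ratio (points), MT over MB left and si-hnRNPL over si-NC right. Whiskers are 95% intervals that combine the counting and assignment error of both libraries. Dashed lines mark the call threshold of 0.58, and dotted lines the median of named entries with a mean FPKM of at least 1. Ckm lies at 6.06 and at 0.71 and is the single gene past the threshold in both panels, while Gatm lies at -0.27 on the right.

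Transcript length and base composition moved with the siRNA comparison. Across 9906 genes with a coding transcript, the log2 change of si-hnRNPL over si-NC had a Spearman correlation of -0.45 with transcript length and 0.42 with GC content, where the median transcript had 3034 bases and 50.3% GC. These genes share their libraries, and no p-value is attached. Ckm (1415 bases, 60.1% GC), Ckb (1478 bases, 59.9% GC) and Gamt (988 bases, 59.7% GC) are shorter and richer in GC than that median, and Gatm (2389 bases, 43.2% GC) is poorer in GC. The median change in bins of length and of GC content was subtracted for the 7 genes with a mean FPKM of at least 1, and not for Ckmt1, Ckmt2 and Ampd1. The log2 changes were then 0.50 for Ckm, 0.25 for Ckb, 0.14 for Gamt, 0.27 for Slc6a8 and -0.21 for Gatm. Ckm was below the threshold, so that 0 of these 7 genes were called. For MT over MB the corresponding correlations were 0.15 and -0.12, and Ckm, Ckb, Gamt and Ampd3 were called among these 7 genes after the subtraction. The share of all genes called after the subtraction is not given here, so these counts cannot be set beside it.

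Markers of differentiation moved as well. Of the 7 myotube markers, 2 were called higher in si-hnRNPL (Mylpf at 0.69 and Acta1 at 0.61), the 7 changes ranged from 0.05 to 0.69 with a median of 0.43, and their summed FPKM was 4421 in si-hnRNPL beside 2951 in si-NC. Of the 5 markers of cycling cells, 3 were called lower, and their sum was 182.4 FPKM with si-NC and 129.2 with si-hnRNPL. Myod1 and Des changed by 0.17 and 0.20 on the log2 scale and were not called. The markers of other cell types summed to 0.384 and 0.260 FPKM. The part of differentiation state, transcript length and GC content in the changes of Ckm, Ckb, Gamt and Gatm was not tested.

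None of the 34 other genes of adenine nucleotide handling was called in either direction (0 higher and 0 lower), and their log2 changes ran from -0.37 for Nt5e, the cell surface enzyme that makes adenosine from AMP, to 0.46 for Nme3, with a median of 0.028. By intervals that did not overlap, 9 of the 34 were higher and 5 lower, where the shares were 6.57% and 9.18% of all named entries and 14.2% and 19.6% of those with a mean FPKM of at least 1. Adssl1 was at 15.0 FPKM with si-NC and 19.4 with si-hnRNPL (log2 change 0.35), and Prkag3 at 6.69 and 9.28 (0.42), each with intervals apart.

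**Figure D4:**
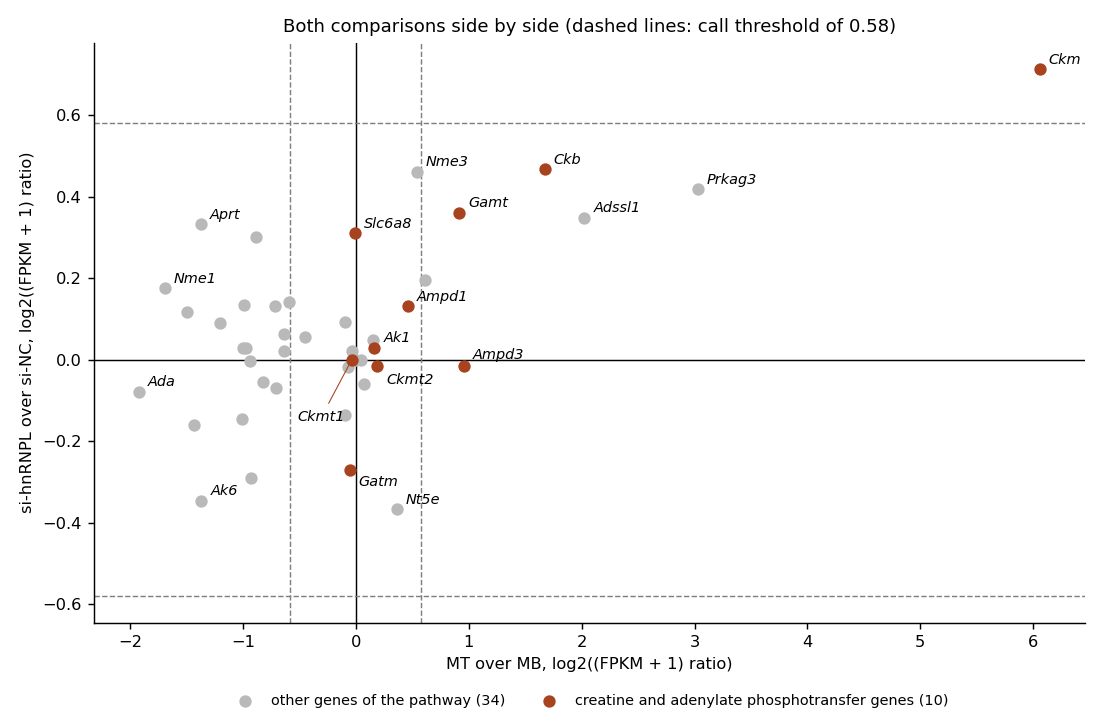
Log2 change of the 10 genes (red) and of the 34 other genes of the pathway (grey), with MT over MB on the horizontal and si-hnRNPL over si-NC on the vertical axis, 1 point per gene and dashed lines at the call threshold. Ckm is alone beyond both thresholds, and all 34 grey points lie within the horizontal dashed lines.

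Genes with a course most like that of Ckm or Ckb were sought among 23409 entries with a unique symbol, by the sum of absolute differences in log2(FPKM + 1) over the 4 libraries. Nearest to Ckm were Atp2a1, the calcium pump of fast muscle (0.81), Klhl41 (1.16), Ankrd2 (1.29), Myom2, a protein of the sarcomeric M-band (1.37), and Chrng, the embryonic acetylcholine receptor subunit (1.88). Atp2a1 had 0.136 FPKM in MB, 59.3 in MT and 56.8 and 48.0 with si-hnRNPL and si-NC. Nearest to Ckb were Fcgrt (0.71), Pfkm, the muscle phosphofructokinase (0.80), Hbp1 (0.84), Hes6 (0.89) and Dcaf8 (1.05). Pfkm had 17.6 FPKM in MB, 58.0 in MT and 37.9 and 36.9 with si-hnRNPL and si-NC. With 4 libraries this likeness is a description of these values.

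The loci of the 10 genes are given in mm9 as the tables list them. The 8 exons of Ckm lie on the plus strand at chr7:19996443-20006932 and the 8 of Ckb on the minus strand at chr12:112907566-112910549. Gatm (9 exons) is at chr2:122420209-122437013 and Gamt (6 exons) at chr10:79720896-79723713, both on the minus strand, and Slc6a8 (11 exons) at chrX:70918472-70927839 on the plus strand. Ckmt1 (10 exons) is at chr2:121184377-121189473 on the plus strand and Ckmt2 (10 exons) at chr13:91992992-92016490 on the minus strand. Ampd1 (14 exons), Ampd3 (18 exons) and Ak1 (10 exons), all on the plus strand, are at chr3:102877937-102903643, chr7:117911720-117955922 and chr2:32477278-32490578. The polyA tables start Ckmt1 further upstream, at 121183512, and end Gamt at 79723757, so these models differ between the kinds of library. Exon numbers are those of the GENCODE models, which for Ak1 extend to 32502325, past the end that the tables list.

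Other entries overlapped 3 of the loci. A930016O22Rik lies within Ckm and covers 524 bases of its exons, and it had 0.00919 FPKM in MB and 0.0598 in MT, far below Ckm in MT. The end of Ckmt1 shares 11 bases with Strc, which was listed at 0 in both libraries. The locus of Ampd3 holds 4 units that the authors assembled from total RNA. Of these, 3 lie between the exons of Ampd3, and the unit at chr7:117917503-117918163 covers 70 exon bases. The unit nearest the start of Ampd3, at chr7:117914130-117914998, had 0.187 FPKM in MB and 0.0324 in MT with intervals that overlapped. The other 3 units had between 0.0943 and 0.144 FPKM in MB and between 0.832 and 0.971 in MT, with intervals apart. Ampd3 itself was 2.09-fold higher. Whether fragments were counted by strand is not given in the sources used here, so the division of fragments between overlapping entries is uncertain.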

How the data were processed

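The members and the gene lists were chosen with earlier results of these data known. The data were 1 total RNA library each of MB and MT, and 1 polyA library each of si-hnRNPL and si-NC cells. According to the submitters' notes and the methods, the authors discarded reads shorter than 36 bases, mapped the rest to mm9 with TopHat and deposited FPKM values from Cufflinks, each with a 95% interval. The gene annotation and the use of strand are not given in the sources used here.

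From these tables, log2((FPKM + 1) ratio) was computed for all named entries, with calls at 0.58 and no test, since each condition had 1 library. Implied fragments are (2 x FPKM / (upper bound - FPKM)) squared. Below 200 they were whole within 0.05 for 91.5% of entries in MB and 91.3% in MT but for 43.8% in si-hnRNPL and 45.1% in si-NC, so no count test was run. Intervals of a change combine the half-widths on the log2 scale in quadrature, and ratios with few fragments have exact binomial intervals. The text names the 10 members, Hnrnpl, the genes of the 34-gene list called in either comparison and paralogs of members. It also names Prkaa1 beside Prkaa2, and the 5 nearest genes to Ckm and Ckb. Adssl1, Prkag3 and Ampd3 shares, the levels of Prkaa1, and the siRNA values of Nt5e, Nme3, Adssl1 and Prkag3, were chosen after their values were seen. Some planned results are not reported here.

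Alternatives were pseudocounts of 0.1 and 0.01, a fold of 2, a mean FPKM of at least 1, median centring, rescaling over named entries with a locus longer than 300 bases, and intervals apart. Subtraction of medians in 20 bins of transcript length and of GC content, over 3 rounds, was chosen after seeing the data. Exons came from GENCODE for mm9 and promoters from the RefSeq table for GRCm38.p6, matched exactly to mm9. Motifs were searched in the 250 bases before each start, on both strands. Calculations ran in Python 3.11.15 (pandas 2.3.3, numpy 2.4.6, scipy 1.17.1), plots were drawn with matplotlib 3.10.9, and the calculation was tested on simulated data.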

Additional observations from a re-analysis of the deposited data

How the results depend on the processing

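No paired analysis was possible because each condition had 1 library and the labels give no replicate numbers, and for the same reason no library could be left out. For MT over MB, 4 of the 10 genes were called higher, with 2 at a fold of 2 and 4 to 6 otherwise. The count called lower was 0, except for 1 with a pseudocount of 0.01. The alternative of intervals apart required the threshold as well, unlike the counts by intervals alone in the Results. For si-hnRNPL over si-NC, 1 gene was called higher, with 2 at a pseudocount of 0.01, 0 at a fold of 2 and 0 of the 7 genes it could be run for after subtraction of length and GC bins. Of the 34 other genes, 3 were higher in MT, with 5 and 7 at pseudocounts of 0.1 and 0.01 and 6 after rescaling. The count lower was 20, with 9 after rescaling and 9 at a fold of 2. Of all named entries, 13.7% and 20.4% were higher in MT at pseudocounts of 0.1 and 0.01, and 21.2% after rescaling. The shares lower were 17.2%, 20.9% and 6.37%. With a mean FPKM of at least 1, the shares after rescaling were 36% higher and 12.3% lower. In the siRNA comparison the list of 34 had 0 higher and 0 lower. It had 1 higher at a pseudocount of 0.01, and 1 and 2 lower at 0.1 and 0.01. Of all named entries, 3.32% and 6.95% were higher in si-hnRNPL at pseudocounts of 0.1 and 0.01, and 2.56% and 6.88% lower. No such share is given for a fold of 2 or for the length and GC bins. In implied fragments the share of Ckm was 48.6% in MT, 39.8% in si-NC and 43.4% in si-hnRNPL. By construction, a higher threshold cannot raise the counts, and a smaller pseudocount damps the changes of weakly expressed genes less. The cause of the other differences was not tested. Ckmt1, Ckmt2 and Ampd1 rest on few fragments, so their log2 changes depend on the pseudocount. So does the change of Ckm for MT over MB, which rests on 1 fragment in MB. It was 6.06, with 9.24 and 11.7 at pseudocounts of 0.1 and 0.01, and was called at each.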
